A study of Homo sapiens with 13 samples.

Results

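The UNCX locus on chromosome 7 is one of the regions that genome-wide association has tied to adolescent idiopathic scoliosis, in which the growing spine curves to the side. Its variants were tested in a lentiviral massively parallel reporter assay (lentiMPRA). The locus was taken as every pair of a reference and an alternative element named for chromosome 7 at a position from 1200000 to 1300000 (hg19) and counted in both cell lines. This gave 135 of the 4468 pairs of the library, at 47 of its 1579 positions. With one shared reference element per position, the pairs comprised 182 elements, 47 of them references and 135 alternatives.

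UNCX encodes a paired-type homeodomain transcription factor. It is expressed in the caudal part of each somite, the block of embryonic tissue that gives rise to vertebrae, and mice without it lack the pedicles of the vertebrae and the proximal ribs. Regulatory elements of developmental transcription factors often lie in the non-coding sequence around the gene. A change of a single base in such an element can raise or lower its activity, and a reporter assay measures this outside the native chromosomal setting. Gene models at hand were on another build, so no position was assigned to an exon, an intron or a UTR. The name of the locus comes from general knowledge of hg19.

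Each element was linked to many barcodes, and the RNA count of its barcodes over their DNA count measured how strongly it drove transcription. The library was carried by a lentivirus into TC28a2, an immortalized line of human chondrocytes, and into SW1353, a human chondrosarcoma line that the labels also call chondrocyte. Both lines received the same treatment, infection with the library of scoliosis risk variants and 48 hours of incubation, and there was no uninfected group. DNA and RNA were sequenced in 3 replicates per line, 12 libraries in 4 groups, out of 13 samples. Each line is a single established line, and the labels do not say whether the replicates were separate cultures, so p-values measure only the spread between these samples, which may be technical. The counts come from reporter barcodes alone and hold no marker genes against which the cell type could be checked.

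Activity is given on the log2 scale as RNA over DNA, less the median of 191 scrambled sequences in the same line, so 0 is the level of the median scrambled control. Replicate values set RNA over DNA of the same replicate number, and the main tests block on that number. The counts did not show that DNA and RNA of the same number belong together (r = -0.012 to 0.023). Overlap and sign by replicate depend on this assumed pairing. The TC28a2 libraries held 5523658 to 5738307 DNA counts and 22048832 to 22212124 RNA counts each. Those of SW1353 held 15582658 to 15626361 and 37571404 to 37631975. The files hold at most 500 barcode positions per element, and an element that reaches this limit in DNA or RNA may have lost barcodes beyond it. Elements of the locus were better covered than the library: the median element had 304 DNA barcodes per replicate in TC28a2, against 187 over all elements, and 324.5 against 220 in SW1353. RNA barcodes numbered 389.5 against 231 in TC28a2 and 195 against 120 in SW1353. Counts at the same barcode position correlated between replicates over the first 10 positions of TC28a2 DNA, TC28a2 RNA and SW1353 DNA (r = 0.17 to 0.31), and not in SW1353 RNA (r = -0.10 and -0.13 over 4945 elements). The labelled replicates of SW1353 RNA may therefore not be separated as named, which was not tested further. If so, the SW1353 replicate values, SDs, left-out replicates and p-values below, and those for line differences, would not reflect separate replicates.

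The positions ran from 1243525 to 1286128, a span of 42603 bp. They were unevenly placed, with 21 of the 47 in a run from 1254192 to 1258972 without a gap of 700 bp or more, and the widest gap between neighbours was 7509 bp. Names of scrambled controls gave windows of 200 bp around the variant, so 22 positions with a neighbour closer than this shared sequence with it. At 44 positions the reference was tested against all 3 other bases, which made 132 substitutions. The remaining pairs were 2 single-base deletions and 1 single-base insertion. An element needed at least 10 DNA barcodes in every replicate, which left 175 elements, 45 references and 129 pairs in each line. The elements left out were the reference and 2 alternatives of position 1262611 and all 4 alleles of position 1271744.

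Many of the tested sequences of the locus drove transcription above scrambled sequence. In TC28a2, 21 of 45 reference elements (46.7%) lay above the median scrambled control, where 27.4% of all 1556 references of the library did so (edgeR quasi-likelihood test, adjusted p under 0.05). In SW1353 the count was 28 of 45 (62.2%), against 37% of 1555. No reference of the locus lay below the scrambled median in TC28a2, where the library share was 2.76%, and 1 did in SW1353, where it was 1.93%. With alternative alleles included, none of 175 elements lay below in TC28a2 (library share 2.54%) and 2 did in SW1353 (1.62%). Above it lay 84 of 175 elements (48%) in TC28a2 against 27.2% in the library, and 108 of 175 (61.7%) in SW1353 against 37.8%. Of the scrambled controls themselves, 9.95% lay above their own median in TC28a2 and 12.6% in SW1353. The median reference of the locus stood at a log2 activity of 0.36 in TC28a2, where that of the library stood at 0.26, and at 0.49 in SW1353, against 0.36.

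The share above scrambled sequence moved together with barcode coverage. In TC28a2, 28 of the 45 references (62.2%) reached the limit of 500 positions, against 19.1% in the library, and in SW1353 21 (46.7%) against 13.6%. Among references at the limit, 16 of 28 at the locus (57.1%) were above in TC28a2, and 57.9% in the library. In SW1353 these shares were 95.2% (20 of 21) and 83.4%. Among references below the limit, 5 of 17 at the locus (29.4%) were above in TC28a2 and 20.3% in the library, and in SW1353 33.3% (8 of 24) and 29.8%. Scrambled controls showed the same split: those at the limit had a median of 0.20 in TC28a2 (32 controls) and 0.43 in SW1353 (24 controls), and those below it -0.05 in each line. A refit without elements at the limit left 4 of 17 references of the locus above scrambled in TC28a2 (23.5%, library 20.3% of 1259) and 8 of 24 in SW1353 (33.3%, library 30.4% of 1344). The locus and library shares were thus closer to each other than with all elements included. The part of the coverage in the activity of the locus was not tested further.

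Of the 45 references, 19 (42.2%) lay above scrambled in both lines, against 23.1% of 1552 references in the library. The call was made in TC28a2 but not SW1353 for 2 (4.44%, library 4.45%), in SW1353 but not TC28a2 for 9 (20%, library 14%), and in neither for 15 (33.3%, library 58.4%). Log2 activities of the 45 references in the 2 lines had a Pearson r of 0.713 and a Spearman rho of 0.662, which describe elements that partly overlap and share the limit on barcodes. The alleles of a position differed less than the positions did: the pooled SD among alleles was 0.152 in TC28a2 and 0.137 in SW1353. The median SD among them was 0.111 and 0.130. The means of positions had an SD of 0.319 and 0.493. No library value was computed for this spread. Every tested allele was above scrambled at 16 of 45 positions in TC28a2 (35.6%, library 14.6% of 1561) and at 25 in SW1353 (55.6%, library 24.4% of 1558). No allele was above at 15 positions in each line (33.3%), against 58% of the library in TC28a2 and 46% in SW1353. Some but not all were above at 14 positions in TC28a2 (31.1%, library 27.4%) and at 5 in SW1353 (11.1%, library 29.7%).

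The reference at position 1267820, the site of rs62435141, was the most active of the locus in TC28a2 and second in SW1353. Its log2 activity was 1.33, 1.05 and 1.27 in the 3 replicates of TC28a2 and 1.70, 1.63 and 1.37 in those of SW1353. All 6 values lay above 1, that is above a doubling of the scrambled level. The fit gave 1.21 in TC28a2 (SE 0.0965, edgeR adjusted p = 1.01e-05) and 1.51 in SW1353 (SE 0.107, adjusted p = 1.23e-06), ranks 15 of 1556 and 16 of 1555 references in the library. Its 3 alternative alleles stood at 0.98 to 1.22 in TC28a2 and 1.27 to 1.43 in SW1353. In SW1353 none of the 4 alleles reached the barcode limit, and without elements at the limit the reference stood at 1.56. On the first 100 barcode positions, an alternative chosen after seeing the data, it was still above scrambled in TC28a2 (1.15, edgeR adjusted p = 0.00348) and SW1353 (0.83, adjusted p = 0.00638).

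Position 1281353 held the highest reference of the locus in SW1353. Replicates gave 1.77, 1.76 and 1.50 there and 0.73, 0.81 and 1.01 in TC28a2, with no overlap between the lines. Fitted log2 activities were 1.62 in SW1353 (SE 0.0923, edgeR adjusted p = 2.45e-07) and 0.84 in TC28a2 (SE 0.098, adjusted p = 0.000135). The element with G at this position was the highest of all 175 tested elements of the locus, at 1.92 (SE 0.0984) in SW1353. All 4 alleles reached the barcode limit in both lines. With the first 100 positions alone the reference stood at 1.10 in TC28a2 and 1.00 in SW1353, above scrambled in each (adjusted p = 0.00308 and 0.00226).

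A group of 4 neighbouring positions within 130 bp, from 1255531 to 1255661, held a further peak of activity. The reference at 1255661 had values of 0.95, 0.85 and 1.59 in TC28a2 and 0.90, 0.87 and 1.07 in SW1353. All were high, and 1 replicate of TC28a2 stood above the other 5 values. The fit gave 1.12 (SE 0.155, edgeR adjusted p = 0.000448) and 0.89 (SE 0.137, adjusted p = 0.000354). References at 1255628 and 1255633, which lie 5 bp apart and share 195 bp, gave nearly the same activity, 0.64 and 0.62 in TC28a2 and 0.92 and 0.96 in SW1353. The fourth position, 1255531, is described below with its neighbour. Elsewhere, windows that share nearly all their sequence were further apart. References at 1257707 and 1257715, 8 bp apart and sharing 192 bp, stood at -0.27 and 0.32 in TC28a2. That difference of 0.60 did not pass the test (SE 0.180, edgeR adjusted p = 0.0835). In SW1353 these references stood at 0.35 and 0.16 (adjusted p = 0.469).

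Other references among the 5 highest of a line were those at 1256339, 1283597, 1274582, 1244515 and 1271233. At 1256339, the site of rs10225684, replicates gave 0.49, 0.89 and 1.18 in TC28a2 and 0.76, 0.63 and 0.78 in SW1353, and the fit 0.85 (SE 0.127, edgeR adjusted p = 0.000706) and 0.67 (SE 0.098, adjusted p = 0.000258). On the first 100 barcode positions the TC28a2 value of this element was 0.51 (adjusted p = 0.0502) and its SW1353 value -0.00461. The element at 1283597 stood at 0.76 in TC28a2 (adjusted p = 0.00256) and 0.96 in SW1353 (adjusted p = 2.27e-05). At 1244515 the values were 0.71 (adjusted p = 0.000848) and 1.19 (adjusted p = 7.98e-06), and at 1271233 0.70 (adjusted p = 0.000485) and 1.17 (adjusted p = 2.34e-06). The 5 elements were picked for their high rank in a line, which made a pass in that line likely from the start. All passed in SW1353, and 4 of them in TC28a2. No library share was computed for elements picked in this way. At 1274582 the reference was above scrambled in SW1353 (1.29, adjusted p = 2.53e-06) and did not pass the test in TC28a2 (0.35, adjusted p = 0.0704). Its TC28a2 value passed with DESeq2 (0.35, adjusted p = 0.0494), without the highest barcode (0.31, adjusted p = 0.018) and without replicate 2 (0.53, adjusted p = 0.0415). The SW1353 values on the first 100 positions fell short of the test at 1255661 (0.42), 1283597 (0.53), 1274582 (0.40), 1244515 (0.46) and 1271233 (0.50), with adjusted p from 0.0541 to 0.128.

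Not all active elements were at the barcode limit. Chosen after their values were seen, 3 references lay below the limit and above scrambled sequence in both lines: 1255131, 1269592 and 1279105. No library share was computed for references of this kind. Of all references below the limit, 29.4% at the locus were above in TC28a2 (library 20.3%) and 33.3% in SW1353 (library 29.8%). The calls at these references follow from how they were chosen. The reference at 1255131 gave 1.00, 0.41 and 0.69 in TC28a2 and 0.67, 0.38 and 0.66 in SW1353, all above the scrambled median. Its fitted activity was 0.69 (SE 0.118, edgeR adjusted p = 0.00165) and 0.52 (SE 0.121, adjusted p = 0.00505). The reference at 1269592 stood at 0.57 (adjusted p = 0.0136) and 0.41 (adjusted p = 0.0483). At 1279105 the values were 0.66 (adjusted p = 0.0453) and 0.54 (adjusted p = 0.00851), with replicates of 0.36, 0.12 and 1.54 in TC28a2, of which the last stands apart.

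The least active reference was at 1270699. Its log2 activity was -0.36, -0.72 and 0.10 in TC28a2 and -0.60, -0.26 and -0.61 in SW1353, below 0 in 5 of 6 values. It passed the test in SW1353 (-0.54, SE 0.166, edgeR adjusted p = 0.0212) and not in TC28a2 (-0.33, SE 0.175, adjusted p = 0.16). The call was lost without replicate 1 (-0.48, adjusted p = 0.0925) or replicate 3 (-0.47, adjusted p = 0.104), and on the first 100 barcode positions the value was -0.02. The neighbouring reference at 1270738, which shares 161 bp with it, stood at -0.09 in TC28a2 and -0.33 in SW1353 (adjusted p = 0.0938). The reference at 1266163 stood at -0.17 in TC28a2 and -0.45 in SW1353 (adjusted p = 0.0593). Its SW1353 value was below scrambled with DESeq2 (-0.45, adjusted p = 0.0436), with a minimum of 50 barcodes (-0.48, adjusted p = 0.0441), without the highest barcode (-0.43, adjusted p = 0.00987) and without replicate 2 (-0.64, adjusted p = 0.02). Also short of the test were 1273821 at -0.17 and -0.06, and 1273845 at -0.11 and -0.21. Against the median of all elements in place of the scrambled median, the SW1353 values at 1266163, 1270738, 1273821 and 1273845 were all below it (adjusted p from 0.00253 to 0.0414). These references were picked as among the lowest in SW1353, and the median of the library's variant elements there was 0.37 above the scrambled median. Passing was thus favoured by the choice, and no share of the locus or library below that median was computed. In TC28a2 the references at 1257707 (-0.27) and 1256416 (-0.13) were also among the 5 lowest, whereas 1257707 lay above scrambled in SW1353 (0.35, adjusted p = 0.0142), a call lost without replicate 1 (0.30, adjusted p = 0.0835).

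Whether the order of the bases, and not only their composition, went with activity was asked at 2 positions of the locus that had a scrambled version of their own. Over the library, 171 such positions were tested, and the native element was higher at 12.9% in TC28a2 and 19.3% in SW1353. It was lower than its scrambled version at 6 positions in TC28a2 and 7 in SW1353. Each position had a single scrambled version. At 1256339 (scrambled control named 1256239 to 1256439), native replicates in TC28a2 were 0.49, 0.89 and 1.18 and scrambled ones -0.09, -0.25 and -0.48. The groups did not overlap, and native exceeded scrambled by 1.13 on the log2 scale (SE 0.193, edgeR adjusted p = 0.0029), a 2.18-fold difference. In SW1353 the native element was at 0.72 ± 0.08 (SD, n = 3) and the scrambled one at -0.18 ± 0.13, a difference of 0.91 (SE 0.141, adjusted p = 0.00172). At 1267820 the native element was at 1.22 ± 0.15 in TC28a2 and its scrambled version at 0.35 ± 0.28, a difference of 0.87 (SE 0.187, adjusted p = 0.00868). In SW1353 the values were 1.57 ± 0.18 and 0.27 ± 0.26, a difference of 1.29 (SE 0.193, adjusted p = 0.00145). Both elements at 1256339 reached the barcode limit in both lines, whereas at 1267820 only the native element did so, in TC28a2. The TC28a2 calls were lost without replicate 2 (1.12, adjusted p = 0.0515) or 3 (0.86, adjusted p = 0.067) at 1256339, and without replicate 1 (0.70, adjusted p = 0.123) or 3 (0.79, adjusted p = 0.122) at 1267820.

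Neighbouring windows that share sequence were compared to see where along the locus activity changed. This comparison was added after the data were seen. Among 15 pairs of overlapping neighbours at the locus, 2 differed in each line, in a library where 5.47% of 475 such pairs differed in TC28a2 and 9.3% of 473 in SW1353 (edgeR adjusted p under 0.05). The windows of 1255531 and 1255628 are 97 bp apart and share 103 bp. The first had replicates of -0.29, -0.19 and 0.22 in TC28a2 and the second 0.83, 0.55 and 0.58, without overlap. The second exceeded the first by 0.74 in TC28a2 (SE 0.184, adjusted p = 0.0383) and by 0.87 in SW1353 (SE 0.194, adjusted p = 0.0128). In the other direction, 1256416 stood below 1256339, which lies 77 bp away and shares 123 bp, by a log2 difference of -0.98 in TC28a2 (SE 0.201, adjusted p = 0.0222). In SW1353 this difference was -0.35 (adjusted p = 0.423). The reference at 1257870 exceeded that at 1257715, 155 bp away, by 0.87 in SW1353 (SE 0.129, adjusted p = 0.00106) and by 0.09 in TC28a2 (adjusted p = 0.839).

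With fewer replicates most of these steps did not pass the test. Without replicate 1, 2 or 3 in turn, the step between 1255531 and 1255628 kept its sign and did not pass the test in either line, with an adjusted p of 0.0684 to 0.306 in TC28a2 and of 0.083 to 0.107 in SW1353. The step at 1256416 was -1.13 without replicate 1, -1.11 without replicate 2 and -0.71 without replicate 3, with adjusted p from 0.105 to 0.124. The step between 1257715 and 1257870 in SW1353 was lost without replicate 2 only (0.82, adjusted p = 0.0636). Coverage also differed within the first pair: the element at 1255531 had a median of 114 DNA barcodes in TC28a2 and 109 in SW1353 and lay below the limit, and that at 1255628 had 364 and 372 and reached it. The difference in TC28a2 was 1.12 on the first 100 barcode positions (adjusted p = 0.0359). Coverage within the other steps is not compared here, and the reference at 1256339 reached the limit in both lines.

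The main question of the assay was whether the alleles of a variant drive different levels of transcription. At the UNCX locus no allelic effect passed the test. Of 129 pairs, 0 passed in TC28a2, 0 in SW1353, 0 over both lines together and 0 for a difference between lines (edgeR quasi-likelihood test, adjusted over all pairs of the library), and DESeq2 also gave 0 in each of the 4 tests. The library shares were 0.0227%, 0.0227%, 0.0228% and 0%. The smallest edgeR adjusted p of a pair of the locus was 0.791, over both lines. At an unadjusted p under 0.05 there were 10 pairs in TC28a2 (7.75%, library 2.64%), 5 in SW1353 (3.88%, library 3.27%), 5 over both lines (3.88%, library 4.48%) and 3 for the difference between lines (2.33%, library 1.91%), and DESeq2 gave 10, 2, 4 and 4. Without replicate 2 these counts were 5 in TC28a2 and 1 in SW1353. Without elements at the barcode limit they were 2 of 46 pairs and 0 of 63.

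The assay bounded the size of these effects. The allelic effect, log2 activity of the alternative minus that of the reference, had a median SE of 0.182 in each line, against 0.235 and 0.261 over the library. Its 95% interval lay within -1 to 1, that is within a doubling either way, for 119 of 129 pairs in each line, for 128 over both lines and for 95 in the difference between lines. Effects ran from -0.72 to 0.52 in each line, with a median size of 0.114 in TC28a2 and 0.125 in SW1353. No effect was larger than 1, and 3 in each line were larger than 0.5. The 42 transitions had a median effect size of 0.139 in TC28a2 and 0.105 in SW1353, and the 84 transversions 0.112 and 0.137.

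Effects of the same alleles showed little correlation between the lines. Over the 129 pairs, Pearson r was -0.0647 and Spearman rho -0.08, as a description of pairs that share reference elements, and 65 had the same sign. The median effect size (0.114 in TC28a2 and 0.125 in SW1353) was below the median SE (0.182 in each line), and no pair passed the test. A low correlation therefore cannot tell whether the lines share allelic effects. An unadjusted p under 0.05 was reached in both lines by 2 pairs, 1 with the same sign and 1 with opposite signs.

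Substitutions are named here by the reference base, the hg19 position as the files give it, and the alternative base. The sources used here do not give the strand of the elements. C1244515T, the pair with the same sign, had the smallest p over both lines. The reference was at 0.79, 0.41 and 0.95 in TC28a2 and the alternative at 0.30, 0.36 and 0.48, which overlap by 1 value. In SW1353 the reference was at 1.10, 1.16 and 1.47 and the alternative at 0.85, 0.90 and 0.81, without overlap. The effect was -0.34 in TC28a2 (SE 0.145, unadjusted p = 0.0338 in the edgeR fit), -0.39 in SW1353 (SE 0.151, unadjusted p = 0.0246) and -0.36 over both lines (SE 0.107, 95% interval -0.59 to -0.14, unadjusted p = 0.0027, adjusted p = 0.791), lower in 6 of 6 replicates. Behind these values were 24459 RNA counts over 5189 DNA counts for the reference and 18415 over 4979 for the alternative in TC28a2, and 26209 over 9079 and 18967 over 8687 in SW1353. The other alternatives at this position, A and G, had effects of -0.28 and -0.18 in TC28a2 and -0.20 and -0.10 in SW1353. All 3 alternatives were set against the same reference element, and both alleles of C1244515T reached the barcode limit.

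A1256339T, at the site of rs10225684, had opposite signs in the lines. The alternative was at 0.22, 0.30 and 0.74 in TC28a2, against 0.49, 0.89 and 1.18 for the reference, and at 1.07, 0.92 and 1.21 in SW1353, against 0.76, 0.63 and 0.78. Its effect was -0.44 in TC28a2 (SE 0.181, unadjusted p = 0.0284 in the edgeR fit) and 0.34 in SW1353 (SE 0.148, unadjusted p = 0.0381). The difference between lines was 0.78 (SE 0.247, 95% interval 0.27 to 1.29, unadjusted p = 0.00472), and it did not pass adjustment over the library (smallest adjusted p of this test at the locus 0.9998). A1256339C, which shares the reference, differed between lines by 0.62 (unadjusted p = 0.0402). The third pair of this kind was C1258248T, at -0.72 in TC28a2 (SE 0.282, unadjusted p = 0.021) and 0.29 in SW1353 (unadjusted p = 0.4), a difference of 1.01 (SE 0.442, unadjusted p = 0.0325). It rested on 672 DNA counts for the reference and 921 for the alternative in TC28a2.

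The remaining pairs with the smallest p in a test were also short of the adjusted threshold. G1257715C was at -0.46 in TC28a2 (SE 0.169, unadjusted p = 0.0156 in the edgeR fit) and -0.12 in SW1353. G1279105C was at -0.64 in TC28a2 (SE 0.276, unadjusted p = 0.0329), where its replicates were -0.34, 0.10 and -1.72 and thus did not share a sign, and at -0.17 in SW1353. G1257707C was at -0.38 in SW1353 (SE 0.151, unadjusted p = 0.0269) and -0.01 in TC28a2. C1286128T was at 0.38 in SW1353 (SE 0.17, unadjusted p = 0.0444) and 0.09 in TC28a2. G1274582T was at 0.30 in SW1353 (SE 0.133, unadjusted p = 0.0457) and -0.02 in TC28a2.

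The deletions and the insertion stayed near their references. The deletion of C at 1269592 had an effect of -0.09 in TC28a2 (95% interval -0.50 to 0.32) and 0.15 in SW1353 (-0.33 to 0.63). For the deletion of T at 1271233 the values were 0.01 (-0.28 to 0.29) and -0.02 (-0.29 to 0.26). The insertion of G at 1279681 gave -0.06 (-0.54 to 0.42) and -0.07 (-0.64 to 0.51). All these intervals exclude a doubling in either direction.

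A difference of activity between the lines was called for some elements, all of which reached the barcode limit in either line. Relative to scrambled sequence, 41 of 175 elements (23.4%) were higher in SW1353 than in TC28a2 (edgeR line interaction, adjusted p under 0.05). In the library 4.27% of 5967 elements were. Alleles of a position share nearly all their sequence, so these calls are not separate. They fell at 16 of the 47 positions of the locus, and those of the library at 125 of its 1579 positions. No element of the locus was higher in TC28a2, where the library share was 0.0168%. Among references the count was 11 of 45 (24.4%), against 4.25%. The largest differences were at 1274582 and 1281353, where all 4 alleles were called. At 1274582 the element with T was at 0.36, 0.14 and 0.50 in TC28a2 and 1.76, 1.54 and 1.60 in SW1353. The lines did not overlap, and the difference was 1.26 (edgeR adjusted p = 6.12e-05). The other alleles there differed by 0.94 (reference, SE 0.176, adjusted p = 0.00192), 1.10 (A) and 0.90 (C). At 1281353 the differences were 0.78 for the reference (SE 0.134, adjusted p = 0.00106), 0.91 for A, 1.11 for G and 0.89 for T. Smaller differences were called for the references at 1257707 (0.62, adjusted p = 0.0159) and 1271233 (0.48, adjusted p = 0.0307). The call at 1257707 was lost without any 1 of the replicates (0.49 to 0.71, adjusted p of 0.0503 to 0.179), and that at 1271233 without replicate 1 (0.36, adjusted p = 0.314) or 2 (0.45, adjusted p = 0.209). Positions 1257870 and 1286128, named after their values were seen, also had all 4 alleles called. No library share was computed for positions with every allele called.

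The difference between lines moved with barcode coverage. All 41 called elements were among the 104 that reached the limit in either line (39.4% of them), and 0 were among the 71 below it. In the library the shares were 18.7% of 1159 elements at the limit and 0.79% of 4808 below it. The median difference of the locus was 0.35 at the limit and -0.01 below it, and that of the library 0.23 and 0.09. On the first 100 barcode positions, 0 of 153 elements were called (library 0 of 4135), and the references at 1274582 and 1281353 differed by -0.35 and -0.09. The count was 9 without replicate 1 of both lines (5.14%, library 1.81%), 11 without replicate 2 (6.29%, library 1.39%) and 31 without replicate 3 (17.7%, library 3.38%). Against the median of all elements in place of the scrambled median it was 19 (10.9%, library 2.11%). How much of the difference goes with the lines and how much with the limit was not tested.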

How the data were processed

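Members and lists were chosen with earlier results of these data known. The authors deposited whole-number counts per barcode position and replicate for DNA and RNA of each line, without normalization. The column headers gave the allele, replicate number and barcode position of each count, which are labels without a unit. The counting program, and whether molecules or reads were counted, are not given in the sources used here; intervals cover counting error and replicate spread only. The submitters' processing notes name hg19 as the build of the coordinates. The sample that linked barcodes to elements was not used, and element sequences were not analysed here.

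Counts were summed over the positions of an element, allele and replicate. Elements needed 10 or more DNA barcodes in every replicate. Log2 values per replicate used counts plus 0.5 and that replicate's scrambled median, so they differ slightly from fitted values. Tests were two-sided edgeR 4.0.16 quasi-likelihood tests in R 4.3.3 on TMM-scaled counts, with Benjamini-Hochberg adjustment over the whole library and a threshold of 0.05. Activity was the contrast of RNA and DNA, blocked by replicate, less the scrambled median. Allelic effects were the interaction of allele with RNA, with a block for each DNA and RNA pair. Line differences were the interaction with line. SEs come from the fit. The scripts were tested on simulated data. Alternatives included DESeq2 1.42.0, other filters, no block, a left-out replicate, and no elements at the limit of 500 positions.

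Named by rule were the 5 highest and lowest references of each line, the 5 elements and 3 pairs with the smallest p between lines, the 5 pairs with the smallest p in each line and over both, pairs under 0.05 unadjusted in both lines, positions with a scrambled version past the threshold, and every insertion and deletion.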

Additional observations from a re-analysis of the deposited data

Results flagged for a closer look

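Differences of activity between the lines stood out at the UNCX locus. Relative to scrambled sequence, 41 of 175 elements (23.4%) were higher in SW1353 than in TC28a2 by the edgeR line interaction, against 4.27% of 5967 in the library. All 41 had reached the barcode limit in at least 1 line, and 0 of 153 were called on the first 100 positions. Among named elements, the difference in log2 activity (SW1353 minus TC28a2) was 0.94 for the reference at 1274582, 1.10 for A, and 1.26 for T at the same position. At 1281353 it was 0.78 for the reference, 0.91 for A, 1.11 for G and 0.89 for T. The references at 1257707 and 1271233 differed by 0.62 and 0.48. Groups held 3 replicates, so no test for a single outlying sample was made.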

How the results depend on the processing

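No allelic test called a pair of the locus under any of the alternatives run. References above scrambled sequence in TC28a2 numbered 21 of 45 (46.7%, library 27.4%), and 4 of 17 without elements at the limit (23.5%, library 20.3%), 10 against the median of all elements (22.2%, library 6.75%) and 14 of 44 on the first 100 positions (31.8%, library 17.9%), an alternative chosen after seeing the data. They rose to 26 with DESeq2 (57.8%, library 30.7%) and 30 without the highest barcode (66.7%, library 43.1%). In SW1353 they numbered 28 (62.2%, library 37%), then 8 of 24 (33.3%, library 30.4%), 15 (33.3%, library 10.4%) and 8 of 39 (20.5%, library 13%), and 32 without the highest barcode (71.1%, library 51.1%). Elements higher in SW1353 numbered 41 of 175 (23.4%, library 4.27%), 0 without elements at the limit (library 0%), 19 against the median of all elements (10.9%, library 2.11%), 0 on the first 100 positions (library 0%) and 51 without the highest barcode (29.1%, library 7.73%). With 1 replicate left out they numbered 9 to 31 (library 1.39% to 3.38%).

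Leaving out 1 replicate gave native minus scrambled differences of 0.86 to 1.40 in TC28a2 at 1256339 and of 0.70 to 1.11 at 1267820. The steps between neighbours then ran from 0.55 to 0.93 (TC28a2) and 0.79 to 1.02 (SW1353) at 1255531 and 1255628, from -1.13 to -0.71 at 1256339 and 1256416 in TC28a2, and from 0.82 to 0.91 at 1257715 and 1257870 in SW1353. On the first 100 positions, native minus scrambled was 0.59 and 0.37 at 1256339 and 0.77 and 0.70 at 1267820, and the last 2 steps were -0.78 and 0.55. These did not pass the test.

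Without the highest barcode, signs reversed for G1274582T (0.0880) and the insertion (0.0779) in TC28a2 and for 1273821 (0.0207) in SW1353. Against the median of all elements, SW1353 values were -0.10 at 1257707 and -0.13 at 1256416. On the first 100 positions, G1257715C was 0.0879 in SW1353, G1257707C 0.48 in TC28a2 and 0.45 in SW1353, and the deletion of C 0.00404 in TC28a2. Activities there were 0.0819 (1270699), 0.0113 (1266163) and 0.0551 (1270738) in TC28a2, and -0.28 (1257707) and -0.00461 (1256339) in SW1353. Line differences were -0.0395 (1257707), -0.0941 (1281353), -0.13 (1271233) and -0.35 (1274582). With 1 replicate left out, effects in TC28a2 ran from -0.10 to 0.0428 for G1257707C, from -0.14 to 0.16 for G1274582T and from -0.11 to 0.10 for the deletion of T. Those in SW1353 ran from -0.0754 to 0.0247 for the deletion of T and from -0.13 to 0.0151 for the insertion. Activity ran from -0.25 to 0.00782 at 1270738 in TC28a2 and from -0.19 to 0.0428 at 1273821 in SW1353. The cause of these changes was not tested.

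DNA and RNA of the same number did not deviate together (r = -0.012 to 0.023), so the counts did not show the pairing that the block assumes. With no replicate block, 23 and 28 references were above scrambled and 41 elements higher in SW1353.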
